A study of Mus musculus with 6 samples.

Results

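The genes described here encode ion channels, their accessory subunits and solute carriers, the proteins that move ions, sugars, amino acids and metabolites across membranes. They were picked by symbol from 2 lists that the study had drawn up by comparing the striatum of HuD-KO mice with that of WT littermates. The lists hold 1088 transcripts of 1031 gene symbols, 790 lower and 298 higher in HuD-KO. Of these, 48 rows with 40 symbols carried the name of a channel, carrier or pump. Trpm3, Slc38a10, Slc16a10 and Slc4a10 were left out because they fill more than 1 row each (12 rows in all), Clic6 and Kcnj13 by name, and Atp6v0b and 1 other gene because they lie on chromosome 4 between 90 and 130 Mb, around the targeted gene. This left 32 genes, 24 listed lower and 8 listed higher, of which 31 are described by name. No pump, ABC transporter or aquaporin remained among them. Each of the 32 genes stands on 1 named probe, and any other probe of it carries no name in the lists and was not analysed here. Of the genes left out, Slc4a10 had 1 probe listed higher and 1 listed lower, with log2 differences (HuD-KO minus WT) of 0.99 and -1.76. The lists were built on the same contrast and the same arrays that are described below, so the direction and the size of each difference follow from the choice of genes and are given as a description, without a test.

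The HuD-KO group comprised 3 adult mice with both copies of Elavl4 disrupted (Elavl4-/-), and the WT group comprised 3 adult littermates. The strain background and the sex of the mice are not given in the sources used here. Elavl4 encodes HuD, a neuronal RNA-binding protein that recognises AU-rich elements. RNA of the dissected striatum was depleted of ribosomal RNA, amplified with oligo(dT) and random primers, labelled with Cy3 and hybridised to 1 array per mouse, which carries 60-base probes for mouse messenger and long non-coding RNAs. In bulk tissue, fewer cells of a type and less RNA per cell cannot be told apart.

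Voltage-gated channels consist of a pore-forming subunit that senses the membrane potential and of accessory subunits that set its trafficking and gating, and in the striatum they shape how medium spiny neurons integrate cortical input. Transmitter-gated channels open on binding glutamate, GABA, glycine or ATP. Solute carriers are transporters of which many serve epithelia, such as the choroid plexus and the ependyma that line the ventricle next to the striatum, where they build the composition of the cerebrospinal fluid.

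The probe of the targeted gene matched the labels. In HuD-KO the Elavl4 level was -5.57, -6.07 and -6.13, given here and throughout in the order of arrays 1 to 3, and in WT it was -1.09, -1.36 and -0.70, where a level is the log2 signal relative to the 75th percentile of the array. The probe was detected, meaning that the scanner software had flagged it as clearly over background, on 3 WT arrays and on 0 HuD-KO arrays. The Y-linked Uty lay between 2.48 and 2.58 in HuD-KO and between -3.09 and -2.73 in WT, and Eif2s3y, Ddx3y and Kdm5d were likewise high in HuD-KO alone, so that sex and genotype cannot be told apart for any gene described here. All arrays lay on 1 slide, with the HuD-KO arrays and WT array 1 in row 1 and WT arrays 2 and 3 in row 2. Across probes, Pearson's r was 0.985 to 0.994 between arrays of 1 genotype and 0.970 to 0.978 between arrays of different genotype.

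Runs of purines (A or G) occurred in most probes of the lower genes, and examples are shown first because array values described later are set beside them. Below, every run of 6 or more purines is in capitals, the sequences are those of the study's lists in the sense of the transcript, 5′ to 3′, and only a 30-base stretch is given where the probe lies within 1 kb of a transcript end. That stretch is the one with the most purines for a lower gene and with the fewest for a higher gene. The purine content of the stretches therefore cannot be compared between lower and higher genes. The lists name no genome build, and the transcript end of 20 of the 32 genes was the same base as in the RefSeq annotation of GRCm38.p6. The first 6 sequences belong to genes listed lower with a WT signal that was highest on WT array 2, the seventh to a gene listed lower with the opposite order of the WT arrays, and the last to a gene listed higher, which has no such run in the stretch. The whole Kcnk4 probe has 27 purines in 60 bases, with a longest run of 5. Slc2a12 has 26 purines and a longest run of 3. Slc24a5, a lower gene with the same order of the WT arrays as Slc2a12, has 38 purines and a run of 8. A run of 6 or more purines was present in 19 of the 24 probes of the lower genes and in 4 of the 8 of the higher genes. The longest, of 16 bases, was in Slc16a9, whose log2 difference was -1.19, and among the higher genes Trpv6 had a run of 10 bases. How many of the other listed probes hold such a run was not counted, and nothing is read from these counts.
Slc5a1: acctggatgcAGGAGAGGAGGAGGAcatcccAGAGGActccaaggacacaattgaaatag
Cacnb1: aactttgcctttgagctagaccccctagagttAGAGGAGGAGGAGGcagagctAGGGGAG
Cacna1g: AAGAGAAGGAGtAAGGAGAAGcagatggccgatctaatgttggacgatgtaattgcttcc
Ano6: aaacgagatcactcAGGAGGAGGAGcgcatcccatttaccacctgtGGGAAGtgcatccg
Scn10a: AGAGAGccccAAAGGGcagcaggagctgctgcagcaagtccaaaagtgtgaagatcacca
Trpm8, bases 2 to 31: AAGAGAcaagcaggctctttGAGGAGAGAG
Slc2a12: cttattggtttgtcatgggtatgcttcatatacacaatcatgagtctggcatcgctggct
Kcnk4, bases 1 to 30: tttgaccctcacacctcacaactgtgcctc
The probes map to chr5:33159126-33159185 on the plus strand for Slc5a1, to chr11:98011438-98011497 on the minus strand for Cacnb1 and to chr1:88306732-88306791 on the plus strand for Trpm8, each as 1 unbroken stretch. The other probes map over intervals longer than the probe and were counted as crossing a junction between exons, at chr11:94423697-94425763 on the minus strand for Cacna1g, chr15:95941352-95943397 on the plus strand for Ano6, chr9:119633842-119635442 on the minus strand for Scn10a, chr10:22693996-22694126 on the plus strand for Slc2a12 and chr19:6925706-6926375 on the minus strand for Kcnk4. In all, 18 of the 24 probes of the lower genes and 5 of the 8 of the higher genes crossed a junction.

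Across the 32 genes, 24 lower and 8 higher, the levels of the HuD-KO and WT arrays did not overlap for any gene. Of the 24 lower genes, 24 were lower by over 2-fold with an unadjusted p under 0.05, the rule of the study, against 4.33% of all 47857 tested probes. All 24 passed a limma adjusted p under 0.05 in that direction, against 14.4% of all probes, and 24 had groups that did not overlap, against 22.5%. Of the 8 higher genes, 7 met the 2-fold rule against 1.60% of all probes, 8 passed the adjusted p against 16.0%, and 8 had groups that did not overlap against 27.3%. These counts follow from the choice of the genes and nothing is read from them. The median log2 difference, HuD-KO minus WT, was -1.45 over the lower genes and 1.08 over the higher genes, with 0.04 over all tested probes. When the slide row was made a block, the comparison rested on WT array 1 alone within row 1, the medians were -1.41 and 1.06, and the adjusted p was passed by 3 of the 24 lower genes (Cacna1e, Kcnd3 and Slc16a9) and by 1 of the 8 higher genes. The 2-fold rule was met by 3 of the 8 higher genes when WT array 2 was left out. With normexp, a model-based background correction that keeps dim signals above zero, in place of that of the scanner software, 13 of the 24 lower genes and 4 of the 8 higher genes met the rule. Normexp was run with an offset of 50 added to every signal, which by itself brings the fold of a dim probe nearer to 1. The parts of the offset and of the background model were not told apart.

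**Figure D1:**
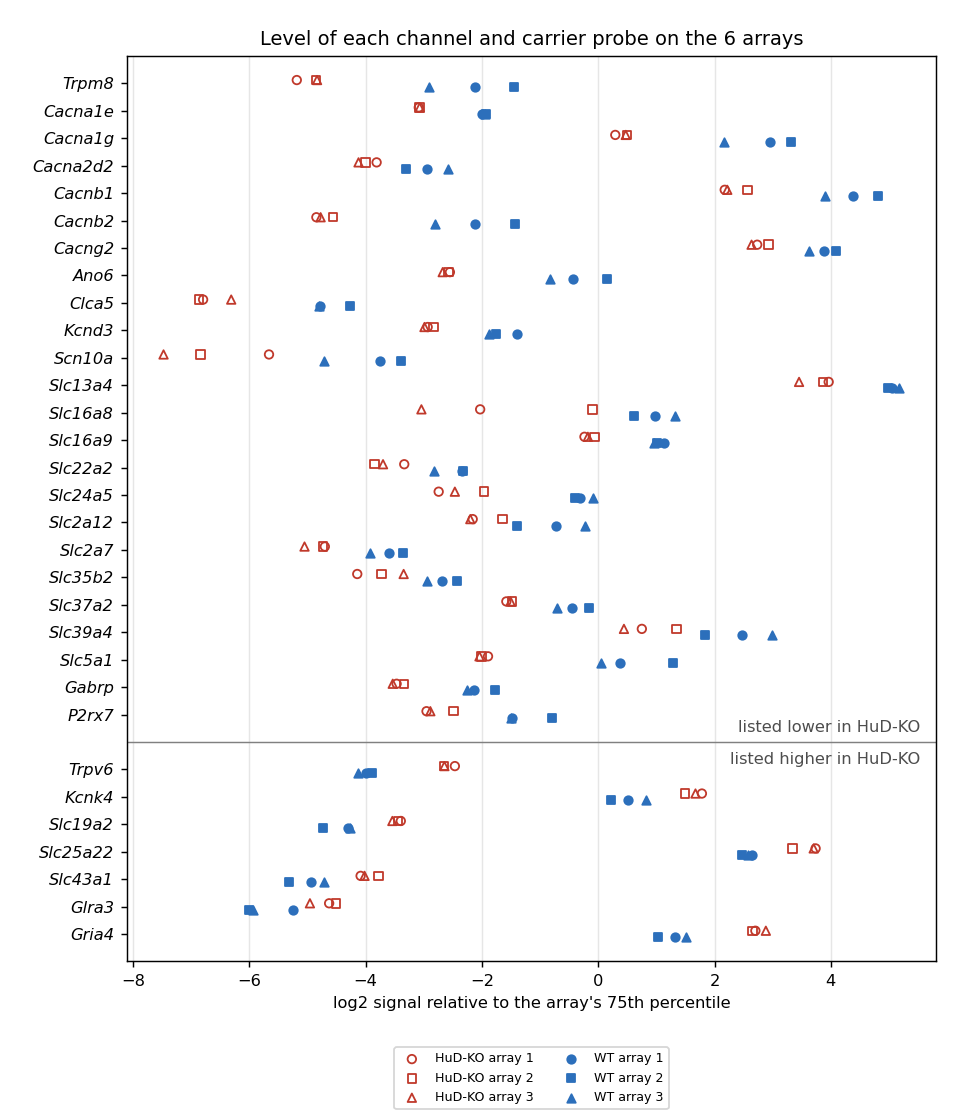
Level of 31 of the 32 probes (log2 signal relative to the 75th percentile of the array, horizontal axis) on the 3 HuD-KO arrays (open red) and the 3 WT arrays (filled blue), with 1 symbol per array number and no averaging. For each gene shown the symbols of the 2 groups do not overlap, and the spread of the WT arrays is wide for Trpm8, Cacnb2 and Slc5a1 and narrow for Cacna1e, whose 3 HuD-KO arrays lay between -3.08 and -3.07.

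Voltage-gated calcium channels made up the largest channel family, with 6 genes listed lower and none higher. Their fold decreases ran from 2.05 to 6.09, with a median of 3.15, and all 6 were detected on all 6 arrays. They include pore-forming subunits as well as accessory subunits. Cacna1g, the pore of a T-type channel that opens near the resting potential and supports burst firing, had levels of 0.29, 0.50 and 0.47 in HuD-KO and of 2.96, 3.31 and 2.17 in WT. The HuD-KO arrays lay close together, whereas the WT arrays were spread, with array 2 highest and array 3 lowest. The log2 difference was -2.39 ± 0.29 (SE), a fold of 5.25. Cacna1e, the pore of an R-type channel, had tight groups, with levels from -3.08 to -3.07 in HuD-KO and from -1.99 to -1.93 in WT, and a log2 difference of -1.12 ± 0.07.

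Of the accessory subunits, Cacnb1 and Cacnb2 encode cytoplasmic β subunits that bring the pore to the surface. Cacnb1 had levels of 2.18, 2.57 and 2.22 in HuD-KO and of 4.38, 4.82 and 3.89 in WT, so that every WT array was above every HuD-KO array and WT array 2 was again the highest. Its log2 difference was -2.04 ± 0.25, a fold of 4.12. Cacnb2 had levels of -4.85, -4.56 and -4.77 in HuD-KO and of -2.12, -1.43 and -2.81 in WT. The Cacnb2 signal was dim in HuD-KO, and its 6.09-fold decrease became 2.52-fold with normexp.

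Cacng2 encodes stargazin, which belongs to the calcium channel γ family by sequence and carries AMPA receptors to the synapse. Its levels were 2.73, 2.93 and 2.64 in HuD-KO and 3.87, 4.08 and 3.62 in WT, a log2 difference of -1.09 ± 0.15 that was -1.06 with normexp. The WT arrays kept the same order as for Cacna1g, Cacnb1 and Cacnb2. Cacna2d2, an extracellular α2δ subunit, was the lower gene nearest to the 2-fold threshold, with levels of -3.81, -4.00 and -4.12 in HuD-KO and of -2.94, -3.31 and -2.58 in WT (2.05-fold). Here WT array 3 was the highest and WT array 2 the lowest, the reverse of the other accessory subunits.

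Among the remaining voltage-gated channels, Kcnd3 encodes the pore of an A-type potassium channel that delays firing, and Scn10a encodes a sodium channel known from pain-sensing neurons of the dorsal root ganglia. The Kcnd3 levels lay between -2.99 and -2.83 in HuD-KO and between -1.87 and -1.40 in WT, a log2 difference of -1.24 ± 0.14. Scn10a was detected on 3 WT arrays (-3.75, -3.38 and -4.71) and on 0 HuD-KO arrays (-5.66, -6.84 and -7.47). For such a probe only a bound can be given, set by the lowest signal among detected probes of each HuD-KO array or the probe's own signal where that is higher. In HuD-KO, Scn10a was at least 2.08-fold lower, or at least 1.65-fold with normexp.

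Kcnk4, which encodes the leak potassium channel TRAAK, was the potassium channel that was higher. Its levels were 1.78, 1.49 and 1.67 in HuD-KO and 0.52, 0.23 and 0.83 in WT. All HuD-KO arrays were above all WT arrays, and the log2 difference of 1.13 ± 0.17 was 1.05 with normexp.

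The chloride channel families held Ano6 and Clca5, and the TRP family Trpm8 and Trpv6. Ano6 encodes a calcium-activated channel that also scrambles membrane lipids. Its levels were -2.55, -2.58 and -2.67 in HuD-KO and -0.44, 0.15 and -0.82 in WT, a log2 difference of -2.23 ± 0.24 and a fold of 4.69. The HuD-KO arrays were nearly the same, and the WT arrays again ran from array 2 at the top to array 3 at the bottom. Clca5, of a family of secreted regulators of calcium-activated chloride channels, was detected on 3 WT arrays (-4.78, -4.26 and -4.79) and on 0 HuD-KO arrays (-6.79, -6.87 and -6.31), which makes the decrease at least 1.31-fold, or at least 1.34-fold with normexp. Trpm8, the cold and menthol receptor of sensory neurons, had levels of -5.18, -4.85 and -4.83 in HuD-KO and of -2.13, -1.45 and -2.91 in WT. The Trpm8 probe was detected on 2 of the 3 HuD-KO arrays, also matches a transcript without a symbol in the table used, and its 6.93-fold decrease was 2.42-fold with normexp. Trpv6, an epithelial calcium channel, went the other way, from -3.99, -3.89 and -4.13 in WT to -2.46, -2.66 and -2.64 in HuD-KO. The Trpv6 increase of 2.67-fold was 1.43-fold with normexp.

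Transmitter-gated channels were split, with Gabrp and P2rx7 listed lower and Gria4 and Glra3 listed higher. Gria4 encodes GluA4, a subunit of AMPA receptors, the channels for fast excitatory transmission. Its levels were 2.70, 2.65 and 2.88 in HuD-KO and 1.31, 1.03 and 1.51 in WT. The groups were separated by more than the range within either, and the log2 difference was 1.46 ± 0.14, or 1.44 with normexp. The AMPA receptor subunit Gria4 was thus listed higher while Cacng2, an auxiliary protein of AMPA receptors, was listed lower in the same animals. Glra3, a subunit of the glycine receptor, was detected on 3 HuD-KO arrays (-4.63, -4.51 and -4.96) and on 0 WT arrays (-5.25, -6.00 and -5.94). Its increase was at least 1.14-fold, or at least 1.02-fold with normexp.

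P2rx7 encodes an ATP-gated channel known from microglia, and Gabrp a subunit of GABA-A receptors found mainly outside the brain. P2rx7 lay between -2.95 and -2.48 in HuD-KO and between -1.50 and -0.79 in WT, a log2 difference of -1.52 ± 0.23. Gabrp lay between -3.53 and -3.34 in HuD-KO and between -2.25 and -1.78 in WT, a log2 difference of -1.39 ± 0.14. For these 2 genes WT array 2 was the highest of the WT arrays.

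Solute carriers formed the largest family, with 11 genes lower by 2.07-fold to 6.49-fold, with a median of 2.33, and 4 genes higher, of which Slc19a2, Slc25a22 and Slc43a1 were higher by 1.97-fold to 2.04-fold. The lower carriers of sugars included Slc5a1, the sodium-coupled glucose transporter SGLT1. Its levels were -1.89, -2.01 and -2.04 in HuD-KO and 0.37, 1.29 and 0.05 in WT. WT array 2 stood above the other WT arrays, and the log2 difference was -2.55 ± 0.31, a fold of 5.87. The facilitative hexose carriers Slc2a7 and Slc2a12 differed less. Slc2a12 lay between -2.20 and -1.65 in HuD-KO and at -0.72, -1.39 and -0.23 in WT, so that HuD-KO array 2 and WT array 2 came close to each other. Slc2a7 lay between -5.05 and -4.70 in HuD-KO and between -3.92 and -3.35 in WT, and its 2.31-fold decrease was 1.45-fold with normexp. Slc37a2, a sugar-phosphate exchanger, lay between -1.58 and -1.48 in HuD-KO and between -0.71 and -0.16 in WT, a log2 difference of -1.08 ± 0.15.

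Of the monocarboxylate carriers, Slc16a8 encodes MCT3, a lactate transporter known from the retinal pigment epithelium and the choroid plexus. Its levels were -2.03, -0.10 and -3.04 in HuD-KO and 0.99, 0.62 and 1.33 in WT. The HuD-KO arrays were widely spread (SD 1.50, n = 3), with array 2 above array 1 and array 3, and the groups came nearest to each other at HuD-KO array 2 and WT array 2. The 6.49-fold decrease was 11.4-fold without HuD-KO array 2 and 4.11-fold without HuD-KO array 3. Slc16a9, of the same family, was far tighter, between -0.24 and -0.06 in HuD-KO and between 0.97 and 1.13 in WT, with a log2 difference of -1.19 ± 0.09.

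The lower carriers of inorganic ions were Slc13a4, Slc39a4 and Slc24a5. Slc13a4, a sodium-coupled sulfate carrier, had levels of 3.96, 3.87 and 3.45 in HuD-KO and of 5.05, 4.98 and 5.18 in WT, a log2 difference of -1.31 ± 0.15. The WT arrays lay close together (SD 0.10, n = 3) and far above each HuD-KO array. Slc39a4, the zinc importer ZIP4, had levels of 0.75, 1.35 and 0.44 in HuD-KO and of 2.47, 1.83 and 2.98 in WT, a log2 difference of -1.58 ± 0.35. Slc24a5, a potassium-dependent sodium/calcium exchanger known from pigment cells, had levels of -2.74, -1.96 and -2.46 in HuD-KO and of -0.32, -0.41 and -0.09 in WT, a log2 difference of -2.12 ± 0.21. In all 3 genes WT array 3 was the highest and WT array 2 the lowest of the WT arrays.

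Slc22a2, which encodes the organic cation carrier OCT2, was at -3.33, -3.84 and -3.70 in HuD-KO and at -2.35, -2.33 and -2.82 in WT. The groups did not overlap, and the log2 difference was -1.12 ± 0.19.

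The remaining carriers were close to the 2-fold threshold. Slc35b2, which brings the sulfate donor PAPS into the Golgi, had levels of -4.14, -3.73 and -3.34 in HuD-KO and of -2.69, -2.43 and -2.94 in WT (2.07-fold lower). Slc25a22, a mitochondrial glutamate carrier, had levels of 3.74, 3.34 and 3.71 in HuD-KO and of 2.65, 2.47 and 2.58 in WT (2.04-fold higher). Slc43a1, a carrier of branched-chain amino acids, had levels of -4.08, -3.78 and -4.02 in HuD-KO and of -4.94, -5.31 and -4.71 in WT (2.04-fold higher). The groups stayed apart for each of these genes, but the Slc43a1 increase shrank to 1.08-fold with normexp. Slc19a2, a thiamine transporter, was the gene of the 32 that fell short of 2-fold on the scale used here, with HuD-KO between -3.54 and -3.39, WT between -4.74 and -4.26, and a fold of 1.97 that was 1.17 with normexp.

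**Figure D2:**
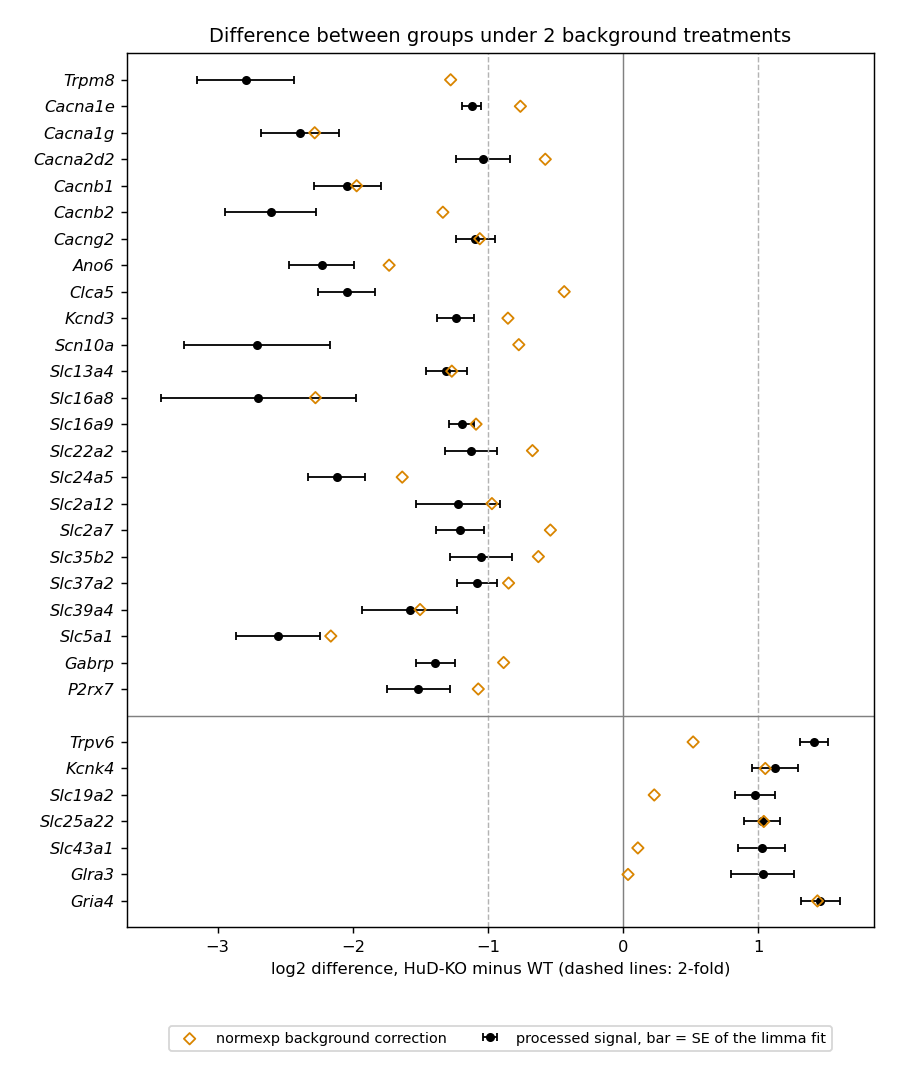
Log2 difference between HuD-KO and WT (horizontal axis) of 31 of the 32 genes from the processed signal, with the SE of the limma fit (black), and with normexp background correction and its offset of 50 (orange diamonds), with dashed lines at 2-fold. The values from the 2 treatments nearly coincide for Cacnb1, Cacng2, Slc13a4, Gria4 and Slc25a22 and come far apart for Trpm8 (-2.79 and -1.28), Scn10a (-2.71 and -0.77) and Clca5 (-2.04 and -0.43), the latter pair not detected in HuD-KO.

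The order of the arrays within a group was not itself a criterion for choosing the genes. It is not independent of the choice, because a signal raised on 1 WT array also raises the WT mean. The probes listed lower, chosen by the same contrast, are therefore the nearer comparison. Among the 24 lower genes, 15 (62.5%) had WT array 2 as the highest and WT array 3 as the lowest WT array, against 46.6% of the 774 tested probes listed lower and 26.4% of all tested probes. The opposite order, with WT array 3 highest and WT array 2 lowest, was found in 6 lower genes, all of them carriers except Cacna2d2, against 31.9% of the listed lower probes and 29.6% of all tested probes. The SD over the WT arrays exceeded that over the HuD-KO arrays in 18 of the 24 lower genes, against 60.9% of all tested probes. For the SD the share among the probes listed lower was not counted. In 7 lower genes (Trpm8, Cacnb2, Scn10a, Slc5a1, Cacna1g, Ano6 and Cacnb1) the signal on WT array 2 was above that on WT array 3 by 1.90-fold to 2.76-fold, a gap of over 0.9 on the log2 scale that 19.9% of the listed lower probes and 3.88% of all tested probes showed. WT arrays 2 and 3 lay in the same row of the slide.

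The probes of these 7 genes had the letters GGAG in common. The 4 letters were picked after the values and the sequences had been seen, and they were searched on the probe strand alone. GGAG was present in 14 of the 24 probes of the lower genes (58.3%) and in 2 of the 8 probes of the higher genes (25%), against 47.9% of the 774 probes listed lower and 24.3% of the 276 probes listed higher. AGAGA, which cannot hold GGAG but can overlap it, was present in 7 of the 24 (29.2%) and in 0 of the 8, against 29.8% and 8.33%. Of the 1024 possible words of 5 letters, the 10 whose share was highest in listed lower over listed higher probes were all made of A and G only. Purines made up a median of 61.7% of the bases in the lower genes and 50.8% in the higher genes, with 60% and 50% in all listed lower and higher probes. The lists give sequences for the listed probes alone, and the share among all probes of the array was not analysed here.

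Since the letters were picked from the genes with the widest gap between WT arrays 2 and 3, the gap with and without GGAG is compared only over other listed probes. Over the 750 other probes listed lower, the median gap was 0.42 on the log2 scale in the 357 with GGAG and 0.14 in those without it, and over the 268 other probes listed higher the medians were 0.04 and 0.09. Across the 24 lower genes the purine share correlated with that gap with r = 0.48 (Spearman's rho = 0.30), but these include the genes from which the letters were picked. Across the 750 other lower probes r was 0.26 (rho = 0.27) and across the 268 other higher probes 0.22 (rho = 0.22), where the points share the same 2 arrays. Not every gene followed this, since Cacna2d2, Cacna1e and Kcnd3 had GGAG and gaps of -0.73, 0.02 and 0.12, and Slc24a5 had 63.3% purines and a gap of -0.32. The part of probe composition in the differences between HuD-KO and WT was not tested.

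**Figure D3:**
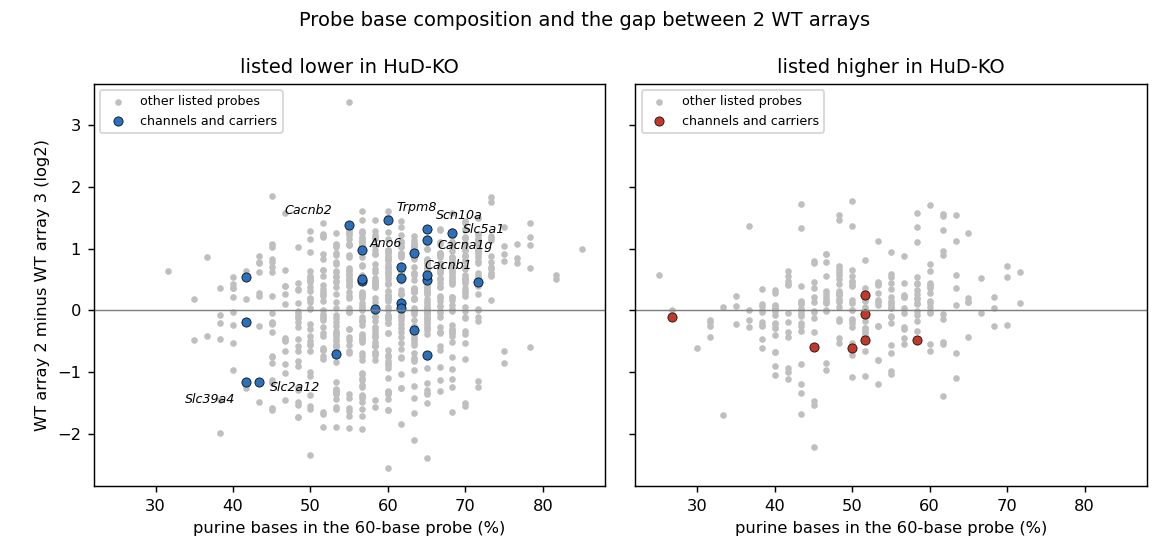
Share of purine bases in the 60-base probe (horizontal axis, percent) against the log2 gap between WT array 2 and WT array 3 (vertical axis) for probes listed lower (left) and higher (right) in HuD-KO, with 24 lower and 7 of the 8 higher channel and carrier genes coloured and other listed probes in grey. The genes named above a gap of 0.9 lie between 55% and 68.3% purines, and Slc39a4 and Slc2a12, with gaps of -1.15 and -1.16, lie at 41.7% and 43.3%.

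Slc16a8, Slc24a5, Slc2a12 and Slc39a4 were highest on array 2 within HuD-KO and ran from array 3 down to array 2 within WT. This order was found in 4 of the 24 lower genes (16.7%) and in 13.1% of all tested probes. Its share among the probes listed lower was not counted. The same order was seen in 8 of the 10 listed probes of choroid plexus markers, in 3 of 3 ependymal probes, in 5 of 5 oligodendrocyte probes and in the hypothalamic Oxt, and in 0 of 3 pyramidal probes. The 5 oligodendrocyte probes all belong to Mbp, and Enpp2 and Calml4 have 2 probes each. Probes of 1 gene on the same arrays are not independent. Of 17 markers of the choroid plexus looked up in the lists, 8 were listed lower (Slc13a4, itself one of the carriers, Clic6, Kcnj13, Sostdc1, Prlr, F5, Calml4 and Enpp2) and 0 higher. Their signal summed over the listed probes was 115 to 178 times the 75th percentile in HuD-KO and 290.1 to 375 times in WT. Most of that sum came from 2 Enpp2 probes, and without them it was 12.9 to 19.8 times in HuD-KO and 45.3 to 56.7 times in WT. Of 5 ependymal markers, Ccdc153, Tmem212 and Rarres2 were listed lower, with sums of 7.94 to 11.9 and 14.5 to 49.7. By the rule of the study 4.33% of all tested probes were lower, while these marker counts are of genes chosen with earlier results known. F5 had levels of -3.01, -0.20 and -2.93 in HuD-KO and of 1.88, 1.59 and 2.31 in WT, and Kcnj13 levels of -0.22, 1.49 and -0.28 in HuD-KO and of 3.26, 3.06 and 3.52 in WT. For F5 and Kcnj13 HuD-KO array 2 was the one nearest to the WT arrays, whereas for Slc13a4 and 1 of the Enpp2 probes it was HuD-KO array 1. HuD-KO array 2 stood above the mean of the other HuD-KO arrays by 2.77 for F5, by 1.74 for Kcnj13 and by 2.44 for Slc16a8. The same difference was 0.75 for Slc39a4, 0.64 for Slc24a5, 0.53 for Slc2a12 and 0.16 for Slc13a4, whose highest HuD-KO array was array 1. In the WT group F5, Kcnj13 and these 5 carriers had array 3 highest and array 2 lowest.

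The other 9 choroid plexus markers, and all 10 markers of medium spiny neurons, had no named probe in the lists and were not analysed here, so the labelled tissue could not be checked against its defining neurons. Among markers of other cells, the oligodendrocyte gene Mbp was listed lower on each of its 5 probes by 2.14-fold to 2.55-fold. Of the genes looked up as pyramidal markers, which need not be confined to those cells, Neurod6 and Nrgn were listed higher by 3.24-fold and 3.64-fold and Camk2a lower by 2.80-fold. The summed signal of the listed oligodendrocyte probes was 11.2 to 14.3 in HuD-KO and 23.3 to 35.3 in WT. That of the pyramidal probes was 80.9 to 92.0 and 84.2 to 90.2, but it adds probes that went opposite ways and does not measure the share of these cells. The interneuron marker Th was listed higher with a level of -4.82 to -4.77 in HuD-KO and -6.06 to -5.25 in WT, where it was detected on 0 of the 3 arrays, so that the increase was at least 1.06-fold, with no bound above 1 under normexp. The hypothalamic Oxt was listed higher by 7.69-fold, with a sum of 4.17 to 14.3 in HuD-KO and 0.444 to 1.43 in WT. Of the markers looked up, 0 of 7 for astrocytes, 0 of 4 for microglia and 0 of 5 for endothelium were listed. Unlisted markers of any cell type have no named probe and were not analysed, so these counts do not show unchanged levels. The rule of the study called 4.33% of all tested probes lower and 1.60% higher, and nothing is read from counts in such small sets. The part of tissue composition in the carrier differences was not tested.

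**Figure D4:**
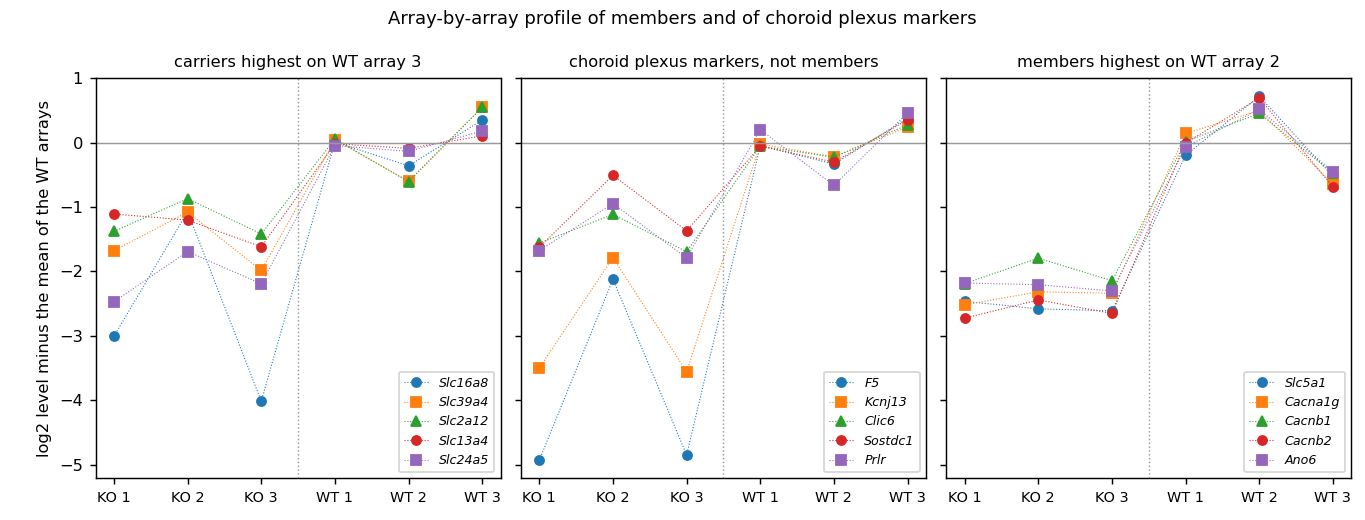
Level on each array minus the mean of the 3 WT arrays (log2, vertical axis) for 5 lower carriers (left), 5 choroid plexus markers (middle) and 5 lower genes with the highest WT signal on array 2 (right), where 1 symbol is 1 array and dotted lines only join the symbols of 1 probe. The genes were picked from larger sets. Of the 10 listed choroid plexus probes, 8 share the array order of the 5 markers shown. The others are Slc13a4, drawn at left, and 1 Enpp2 probe, highest on HuD-KO array 1 and WT array 2, not drawn. Slc16a8 rises on HuD-KO array 2 as F5 and Kcnj13 do, whereas Slc5a1, Cacna1g, Cacnb1, Cacnb2 and Ano6 differ less among the HuD-KO arrays than among the WT arrays and peak on WT array 2.

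A corner of the arrays, known from earlier results of these data to be dim on HuD-KO array 2, held the probes of 3 lower genes and 1 higher gene. Over the 7472 tested probes there, HuD-KO array 2 differed from the mean of the other HuD-KO arrays by a median of -0.19, against 0.03 elsewhere. The same difference was -0.04 for Slc5a1, -0.04 for Cacna2d2 and -0.38 for Slc25a22, while Cacna1e had nearly the same level on all 3.

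Other genes that work with channels and carriers were looked up from a list of 116, made up of further channels, anchors, scaffolds and regulators. Of these, 4 were listed lower and 1 higher, and the others carried no name in the lists and were not analysed here. Over all tested probes, 4.33% were lower and 1.60% higher by the rule of the study. The counts of partners are of genes rather than probes, and nothing is read from them. Ank3 encodes ankyrin-G, which anchors sodium and potassium channels at the axon initial segment. Its levels were 1.76, 2.27 and 1.72 in HuD-KO and 4.31, 4.08 and 3.89 in WT, with no overlap between the groups. Shank2 and Homer3 encode postsynaptic scaffolds, and Cngb3 a subunit of the cyclic nucleotide-gated channel of cone photoreceptors. Shank2 lay between -3.55 and -3.22 in HuD-KO and between -2.32 and -1.70 in WT, Homer3 between -3.65 and -3.21 and between -2.44 and -2.08, and Cngb3 had a mean of -3.03 ± 0.05 (SD, n = 3) and of -1.20 ± 0.22. Fxyd7, a regulator of the sodium/potassium pump, was higher, with 0.09 to 0.18 in HuD-KO and -1.46 to -1.02 in WT. WT array 2 was the highest WT array for Shank2, Homer3 and Cngb3.

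Promoters of 28 of the 32 genes were present in the RefSeq table of GRCm38.p6, with 300 bases around the start of each gene. GGGCGG was found on either strand in 8 of the 21 promoters of lower genes (38.1%) and in 5 of the 7 of higher genes (71.4%), against 35.9% of all 27025 promoters. TATAAA was found on either strand in 1 of the 21 and 1 of the 7, against 14.2% of all promoters.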

How the data were processed

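The deposited intensity of each spot was, per the file headers, already background-subtracted and detrended over the array, but not normalized between arrays. The authors also deposited 2 lists of changed transcripts with, for each array, the intensity and a normalized log2 value, whose method is not given in the sources used here. Their p-value, FDR and fold columns were not used. Processed signals were put on the log2 scale, the 75th percentile of each array was subtracted, and spots of 1 probe were averaged. Of 60915 target probes, 65 were left out for an outlier mark on their only spot, and 47857 were well above background on all 3 arrays of at least 1 group. The 75th percentile of the signal ranged from 446.2 to 615.5, between 77.5% and 81.7% of spots were well above background, and 0 were saturated. Precision was limited by the 3 arrays per group. The 2 genotypes were compared by limma 3.58.1 (two-sided lmFit and eBayes fit, R 4.3.3), with Benjamini-Hochberg adjustment over all tested probes. Tested on simulated data with 200 of 47857 probes changed, limma called 46% of 2-fold and 82% of 4-fold changes, and 2.29% of its calls were false. The simulated noise was independent between probes, and the share changed was far below the 14.4% called lower and 16.0% called higher here. These rates therefore need not hold for the data. Summaries used Python 3.11.15 with pandas 2.3.3 and numpy 2.4.6.

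Values of every array are given for the 8 genes in each direction with the largest difference among those well above background on all 6 arrays, for the 3 with the highest mean level, the 3 with the highest bound and the 2 just inside 2-fold, and for others (Trpm8 and Slc22a2 among them) chosen after their values were seen. The values of 1 of the 32 genes, and 1 cell type marker, are not reported here. That gene enters the counts, medians and shares over the 32 genes and is not drawn in the plots. The genes, the lists of partners and markers, and the alternatives were chosen with earlier results of these data known. Alternatives were the percentile over detected probes, quantile normalization with and without a floor of 5, normexp with an offset of 50 (on the median spot signal), no filter or detection on all 6 arrays, the methods' unpaired test, the replicate number or the slide row as a block, leaving out a dim corner or each array, and, added after the data were seen, the authors' log2 values. Whether the 3 mice per group came from separate litters is not given in the sources used here.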

Additional observations from a re-analysis of the deposited data

How the results depend on the processing

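Each of the 32 genes kept its direction under every alternative that could fit it. Since the genes were chosen by the same contrast on the same arrays, this was largely fixed in advance. With normexp the median log2 difference was -1.07 over the lower and 0.78 over the higher genes, 13 lower and 4 higher genes met the 2-fold rule, and 5 higher genes passed the adjusted p. The filter on all 6 arrays left 5 higher genes, with a median of 1.41. With the slide row as a block, 3 lower and 1 higher genes passed the adjusted p and 4 higher genes met the 2-fold rule. Leaving out each array in turn gave medians of -1.55 to -1.36 and of 0.98 to 1.22, 21 to 24 lower and 3 to 8 higher genes past the 2-fold rule (3 without WT array 2), and 19 to 23 lower and 7 to 8 higher genes past the adjusted p. Genes that lost the adjusted p when 1 array was left out were Slc16a8 (for 5 of the 6 arrays, HuD-KO array 2 excepted), Slc2a12 (HuD-KO 1 and 3, WT 1 and 3), Slc39a4 (HuD-KO 1 and 3, WT 1), Slc35b2 (HuD-KO 1 and 2, WT 1), Cacna2d2 (HuD-KO 3) and Scn10a (WT 1) among the lower and Glra3 (HuD-KO 1 and 2, WT 2 and 3) among the higher genes. The methods' t-test gave 24 lower and 7 higher genes at their threshold and 19 and 7 after Benjamini-Hochberg adjustment. The replicate numbers did not pair the arrays (correlations of -0.13 to -0.03), and with the number as a block 20 lower and 8 higher genes passed the adjusted p. Dim probes were limited by background, and the normexp offset brings their folds nearer to 1 by construction. Other causes of these shifts were not tested.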
